A study of Arabidopsis thaliana with 8 samples.

Results

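Genes of seed oil storage, 10 in number, were followed in Arabidopsis thaliana embryos: 7 oleosins (OLEO1 to OLEO4, AT3G01570, AT1G48990 and AT3G18570), the caleosin CLO1, the steroleosin HSD1 and the acyltransferase TAG1. They were chosen by family and by their locus in the annotation of the arrays, with earlier results of these data known, and all 10 were found among 24648 loci, each with 1 probe. Isolated embryos from M0191 mothers pollinated by bdl were compared on 2-colour arrays with embryos from M0171 mothers pollinated by Col-0, harvested 3 d or 6 d after pollination. Each stage had 4 arrays, and the bdl cross was labelled with Cy5 on replicates 1 and 2 and with Cy3 on replicates 3 and 4. All lines are labelled with the Col-0 ecotype. The line bdl (bodenlos) is known for a stabilised form of IAA12, a repressor of auxin response; the stock lines M0191 and M0171 are not described further in the labels, nor is the number of embryos pooled for an array. The crosses differ in mother and father alike, and effects of the parents cannot be told apart. Every value below is a log2 ratio, the bdl cross (M0191 by bdl) divided by the Col-0 cross (M0171 by Col-0), unless it is named as an intensity, so positive values are higher in the bdl cross, and errors after ± are standard errors of limma fits.

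Plant seeds store oil as triacylglycerol in oil bodies, droplets with a phospholipid monolayer that is studded with proteins. Oleosins, which hold a long hydrophobic hairpin in the oil, are the most abundant of these proteins and keep the droplets small and separate. Caleosins bind calcium and have peroxygenase activity, steroleosins are sterol dehydrogenases anchored in the same surface, and TAG1 (DGAT1) makes triacylglycerol itself from diacylglycerol and acyl-CoA. In Arabidopsis these genes are known as part of the seed maturation programme, which follows pattern formation in the embryo.

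The arrays of the 3 d stage stood in pairs that did not follow the labelled dyes. The median log2 ratio of empty spots was above 0 on replicates 1 and 4 (1.28 and 0.79) but below 0 on replicates 2 and 3 (−1.18 and −1.32), and over all genes replicate 1 correlated best with 4 (r = 0.40) and replicate 2 with 3 (r = 0.46). The other pairs of 3 d arrays correlated at 0.22 to 0.26, and the 6 d arrays with each other at 0.64 to 0.74. With a term for these pairs in place of the dye term, chosen after the data were seen, the same 5 members were called at 3 d. Gene spots with a value numbered 22327 to 25322 per 3 d array, and 23517 to 26342 rows of the 6 d table held one. IAA12 itself read 3.32 to 3.57 on the 3 d arrays and 0.26 to 0.39 at 6 d. The design text calls the replicates biological, and their number limits the precision of every value.

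At 3 d, the 4 named oleosins and AT3G01570 were 4.74-fold to 21.0-fold higher in the bdl cross, while the oleosins AT1G48990 and AT3G18570 and the enzyme gene TAG1 did not pass the test. Of 10 members, 8 could be tested at 3 d, of which 5 were called higher, 0 lower and 3 neither, at an adjusted p under 0.05 in limma; at an unadjusted p under 0.05, 6 were higher and 0 lower. The background was 7.01% of 19218 genes called higher and 6.1% called lower, 13.1% in all. The median of the tested members was 2.31, against −0.01 over all genes tested. Each array compares bulk RNA, in which more cells of a type and more RNA per cell cannot be told apart.

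OLEO4 (AT3G27660), a seed oleosin, had the highest ratio among the tested members at 3 d. It read 4.33, 4.93, 4.67 and 3.65 on replicates 1 to 4, which is 21.0-fold (4.39 ± 0.24, adjusted p = 0.0267). Its intensity was 4649, 1171, 1523 and 6330 in the bdl cross and 232, 38.4, 60.0 and 503 in the Col-0 cross. All 4 bdl values lay above all Col-0 values, but the Col-0 signal exceeded empty spots (their 95th percentile) on replicates 1 and 4 alone, and with 50 added to both channels the ratio was 3.80. Only 5 of the 19218 genes tested had a higher ratio at this stage.

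AT3G01570, an oleosin with no other symbol in the gene table used, was higher on all 4 arrays. It read 3.82, 3.79, 3.35 and 3.32, or 11.9-fold (3.57 ± 0.06, adjusted p = 0.0224). Its intensities, 8067, 7826, 3647 and 5400 in the bdl cross against 569, 566, 357 and 540 in the Col-0 cross, were above empty spots in both crosses on every array. The intensities of the crosses did not overlap. Replicates 1 and 2, with the bdl cross in Cy5, read higher than replicates 3 and 4, with it in Cy3. The dye term takes up this split, so the standard error leaves it out. The standard deviation over the 4 arrays was 0.27.

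OLEO1 (AT4G25140), known as the most abundant oleosin of Arabidopsis seeds, read 2.51, 2.37, 2.11 and 1.99. That is 4.74-fold (2.24 ± 0.07, adjusted p = 0.0224). The bdl intensities of 4178, 4331, 2227 and 3880 all exceeded the Col-0 intensities of 732, 838, 517 and 976. No array stood apart for OLEO1, though replicates 1 and 2 again read higher than replicates 3 and 4 (standard deviation 0.24).

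OLEO2 and OLEO3, further seed oleosins, were higher by similar amounts, and for both replicate 4 was the low array. OLEO2 (AT5G40420) read 2.63, 2.77, 2.84 and 1.40 (5.32-fold, 2.41 ± 0.29, adjusted p = 0.0385). OLEO3 (AT5G51210) read 2.53, 2.72, 2.74 and 1.51 (5.18-fold, 2.37 ± 0.25, adjusted p = 0.0341). Without replicate 4 they read 2.77 and 2.68. The level of OLEO3 also differed most between arrays: 14099, 11431, 6248 and 350 in the bdl cross and 2447, 1730, 937 and 123 in the Col-0 cross, so that the highest bdl intensity was 40.2 times the lowest while the ratio moved between 1.51 and 2.74. The bdl intensity of OLEO3 was the higher on each array, but across arrays the intensities of the crosses overlapped. OLEO2 intensities ran from 4588 to 24517 in the bdl cross and from 1743 to 3590 in the Col-0 cross, with no overlap.

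**Figure D1:**
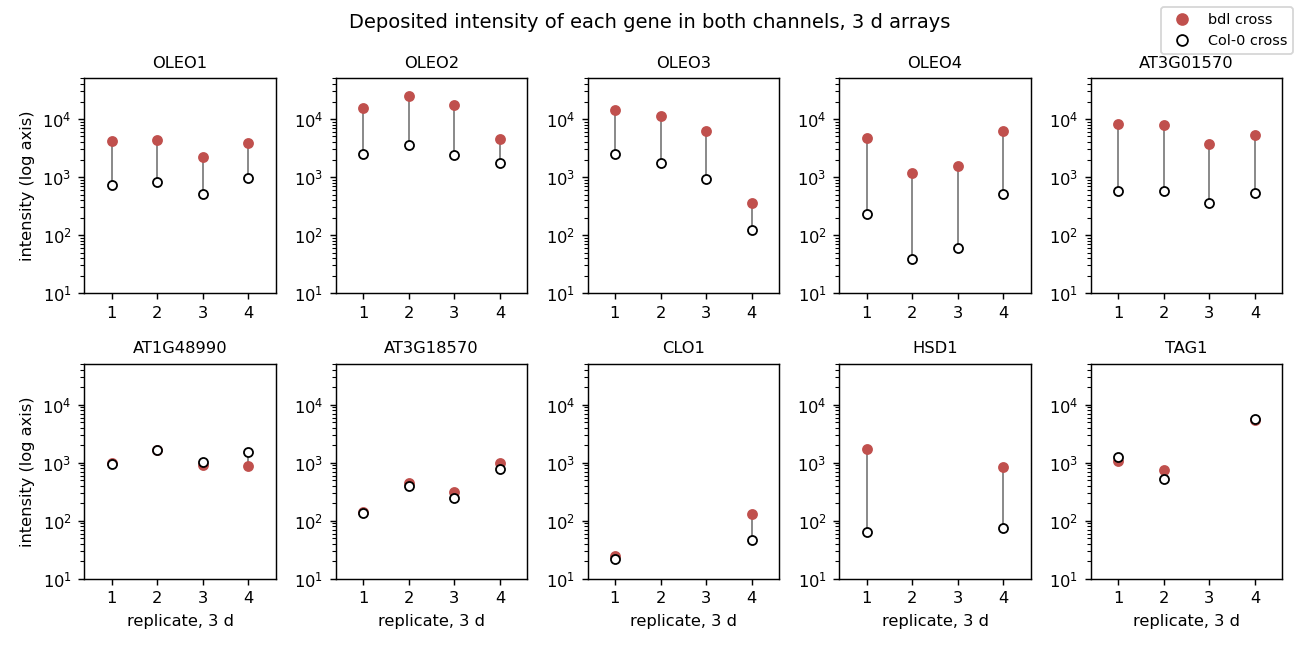
Deposited intensity (log axis, arbitrary linear units) of the 10 genes on the 4 arrays of 3 d; filled points are the bdl cross, open points the Col-0 cross, and a line joins the channels of an array. OLEO1 to OLEO4 and AT3G01570 are separated on every array, AT1G48990, AT3G18570 and TAG1 are not, and CLO1 and HSD1 have values on replicates 1 and 4 alone.

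The remaining oleosins and TAG1 were bright enough to measure at 3 d and showed no difference past the threshold. AT1G48990 read 0.05, 0.04, −0.16 and −0.78 (−0.21 ± 0.14, adjusted p = 0.348), with intensities of 891 to 1680 in the bdl cross and 942 to 1629 in the Col-0 cross. AT3G18570 read 0.04, 0.19, 0.35 and 0.35 (0.23 ± 0.06, adjusted p = 0.107), and its intensities of 141 to 1001 and 137 to 784 overlapped. It was called (adjusted p = 0.0406) when the test was limited to genes above empty spots in both channels on all arrays. TAG1 (AT2G19450) had values on 3 arrays, −0.24 on replicate 1, 0.51 on replicate 2 and −0.03 on replicate 4, on both sides of 0 (0.05 ± 0.23, adjusted p = 0.892), and replicate 3 did not enter its fit.

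CLO1 and HSD1 were not tested at 3 d, because each had values on replicates 1 and 4 alone, the arrays that also resembled each other in their empty spots. HSD1 (AT5G50600) read 4.75 and 3.49, from bdl intensities of 1728 and 838 against Col-0 intensities of 64.4 and 74.8. CLO1 (AT4G26740) read 0.17 and 1.49, from intensities of 24.3 and 129 against 21.6 and 46.2. For CLO1 the Col-0 signal was above empty spots on no array and the bdl signal on replicate 4 alone, so no fold is given. AT5G50700, which the gene table also names HSD1, has its own probe and read 3.93 and 4.32 on the same arrays. These copies are closely related, so their signals may be shared, and HSD1 values are uncertain to that extent.

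The calls at 3 d depend on having all 4 arrays in the fit. With any 1 array left out and the dye term kept, which leaves 1 residual degree of freedom, limma called none of the members and none of all genes (4610 to 5358 genes had an unadjusted p under 0.05), while the fitted values of the 5 called members were 2.05 to 4.65. With 1 array left out and no dye term, OLEO1, OLEO4 and AT3G01570 were called each time (adjusted p = 0.0259 to 0.0445); OLEO3 was lost without replicate 2 or 3 (2.26 and 2.25, adjusted p = 0.0571 and 0.0566), and OLEO2 without replicate 1, 2 or 3 (2.34, 2.29 and 2.27, adjusted p = 0.0564, 0.0654 and 0.0624).

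At 6 d, all of the tested oil body protein genes except OLEO3 were higher in the bdl cross, and TAG1 was lower. The size of the difference separated the oleosins: AT3G01570 and OLEO1 were still 9.29-fold and 4.96-fold higher, whereas OLEO2, OLEO4, AT1G48990 and AT3G18570 were 1.30-fold to 1.87-fold higher. Of 10 members tested, 8 were called higher, 1 lower and 1 neither. The background was 26.7% of 19972 genes called higher and 26.7% called lower, 53.4% in all. The median of the members was 0.80, against −0.02 over all genes. At this stage log2 ratios alone were analysed, and their direction rests on the table having 1 convention for both stages; signal over background is unknown.

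The caleosin and steroleosin genes, not tested at 3 d, were called higher in the bdl cross at 6 d. For HSD1 the 3 d values (4.75 and 3.49, on replicates 1 and 4) were already high. At 6 d CLO1 read 4.59, 3.69, 3.93 and 5.01, or 19.8-fold (4.31 ± 0.29, adjusted p = 0.0037). The arrays differed by 1.31, and 46 of the 19972 genes had a higher ratio. HSD1 read 5.25, 7.89, 5.48 and 0.69 (4.83 ± 1.09, adjusted p = 0.0388), positive on each array but spread over 7.20 on the log2 scale. With 1 array left out and the dye term kept its fitted value was 3.63 to 6.02, and the call held without replicate 4 (6.02, adjusted p = 0.0295) and ended without replicate 1, 2 or 3 (adjusted p = 0.0817, 0.134 and 0.0616). AT5G50700 had values on replicates 2 and 3 alone, 3.80 and 7.40, and was not tested.

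AT3G01570 read 3.21, 3.26, 3.06 and 3.33 at 6 d (3.22 ± 0.08, adjusted p = 0.00257). OLEO1 read 2.38, 2.33, 2.31 and 2.22 (2.31 ± 0.06, adjusted p = 0.00257). For these oleosins the 4 arrays lay within 0.27 and 0.16 of each other, and both stayed called with any 1 array left out.

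The other oleosins were closer to equal between the crosses at 6 d. OLEO4 read 0.43, 0.58, 0.62 and 0.59, or 1.47-fold (0.56 ± 0.07, adjusted p = 0.00967). OLEO2 read 0.89, 0.61, 0.46 and 0.84, or 1.63-fold (0.70 ± 0.11, adjusted p = 0.0174), a call lost without replicate 1, 2 or 4 with the dye term kept (adjusted p = 0.0513 to 0.0653). OLEO3 read −0.15, 0.92, 0.25 and 0.45, on both sides of 0, and did not pass (0.37 ± 0.22, adjusted p = 0.261). With the dye term kept it was called without replicate 1 (0.64, adjusted p = 0.0426), and without replicate 2 it read 0.10 (adjusted p = 0.496). Without replicate 1 and with no dye term it was not called (0.54, adjusted p = 0.088).

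AT3G18570, which had not passed at 3 d, read 0.98, 0.92, 0.67 and 1.04 at 6 d (1.87-fold, 0.90 ± 0.09, adjusted p = 0.00767). AT1G48990 read 0.30, 0.59, 0.35 and 0.25 (1.30-fold, 0.37 ± 0.09, adjusted p = 0.0394). Both were positive on all 4 arrays, but the call of AT1G48990 ended with any 1 array left out and the dye term kept (adjusted p = 0.0575 to 0.131). TAG1, the acyltransferase gene, read −0.95, −0.86, −0.87 and −0.98, or 1.89-fold lower in the bdl cross (−0.92 ± 0.06, adjusted p = 0.00398). Its arrays lay within 0.12 of each other, all below 0, and it was called with any 1 array left out.

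**Figure D2:**
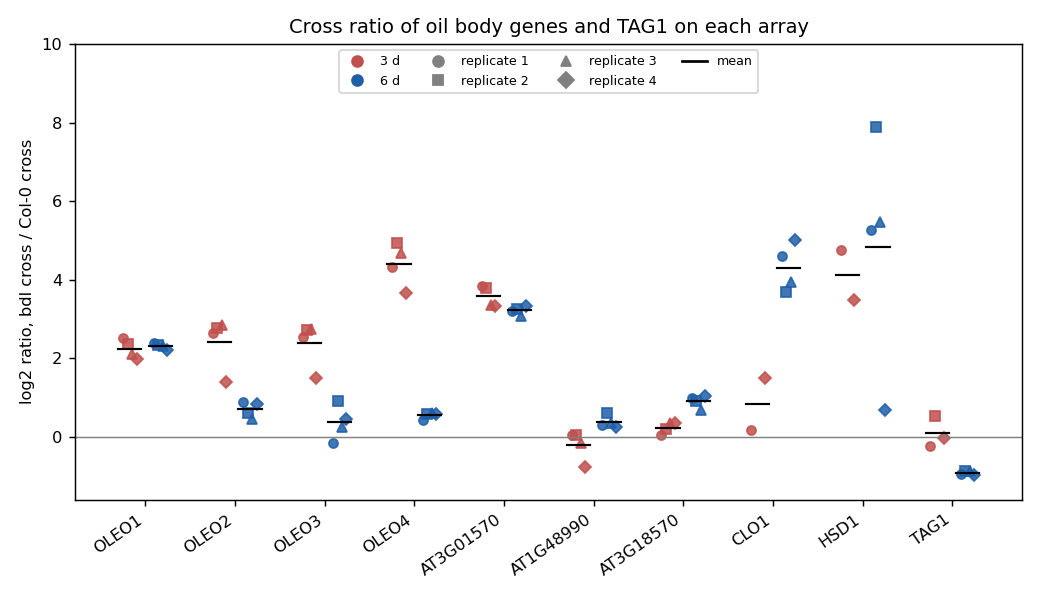
Log2 ratio between the crosses (vertical axis, above 0 where the bdl cross is higher) for each gene on each array; red is 3 d, blue is 6 d, the symbol gives the replicate and the bar the mean over arrays with a value. OLEO4 lies at 3.65 to 4.93 at 3 d and at 0.43 to 0.62 at 6 d, OLEO1 and AT3G01570 overlap between stages, and TAG1 lies at −0.98 to −0.86 at 6 d.

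The comparison of stages asked whether the difference between the crosses itself differed between 3 d and 6 d. The ratio was smaller at 6 d for OLEO4, OLEO3, OLEO2 and TAG1, larger for AT3G18570 and AT1G48990, and not shown to differ for OLEO1 and AT3G01570. Of 8 members tested, 2 were called with a larger and 4 with a smaller ratio at 6 d. The background was 23.9% and 20.7% of 18836 genes, respectively. The median stage difference of the members was −0.67, against 0.02 over all genes. These are differences of ratios, 6 d minus 3 d, and do not say whether a gene's level rose or fell with age.

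OLEO4 had the largest stage difference among the members, −3.84 ± 0.27 (adjusted p = 0.000103), and 0.069% of all genes tested had a lower value. Its size and rank rest on a Col-0 signal at 3 d that was not above empty spots on replicates 2 and 3; with an offset of 50 the 3 d ratio was 3.80 in place of 4.39, and no such offset could be applied at 6 d. OLEO3 and OLEO2 followed with −2.01 ± 0.35 (adjusted p = 0.00423) and −1.71 ± 0.33 (adjusted p = 0.00616). With replicate 4 of both stages left out and no dye term, an alternative chosen after the data were seen, the 3 values were −4.10, −2.32 and −2.09, each still called. TAG1 gave −0.99 ± 0.20 (n = 7, without replicate 3 of 3 d, adjusted p = 0.0119). AT3G18570 gave 0.67 ± 0.12 (adjusted p = 0.00504) and AT1G48990 0.59 ± 0.17 (adjusted p = 0.0316); the latter was lost in 5 of the 8 fits that left out 1 array and kept the dye term. For these 6 genes the arrays of the stages did not overlap, as was the case for 48.9% of all genes tested; 44.6% of all genes were called in either direction.

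For OLEO1 and AT3G01570 the stages were not shown to differ. OLEO1 gave 0.07 ± 0.10 (adjusted p = 0.626), and AT3G01570 gave −0.36 ± 0.12 (adjusted p = 0.0535), which passed the threshold without replicate 4 of 6 d (−0.45, adjusted p = 0.0192). CLO1 and HSD1 could not be tested between stages. The values of CLO1 at 3 d, 0.17 and 1.49, lay below all of its 6 d values. At 3 d its signal exceeded empty spots in the bdl channel of replicate 4 alone. The HSD1 values of the stages overlapped.

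**Figure D3:**
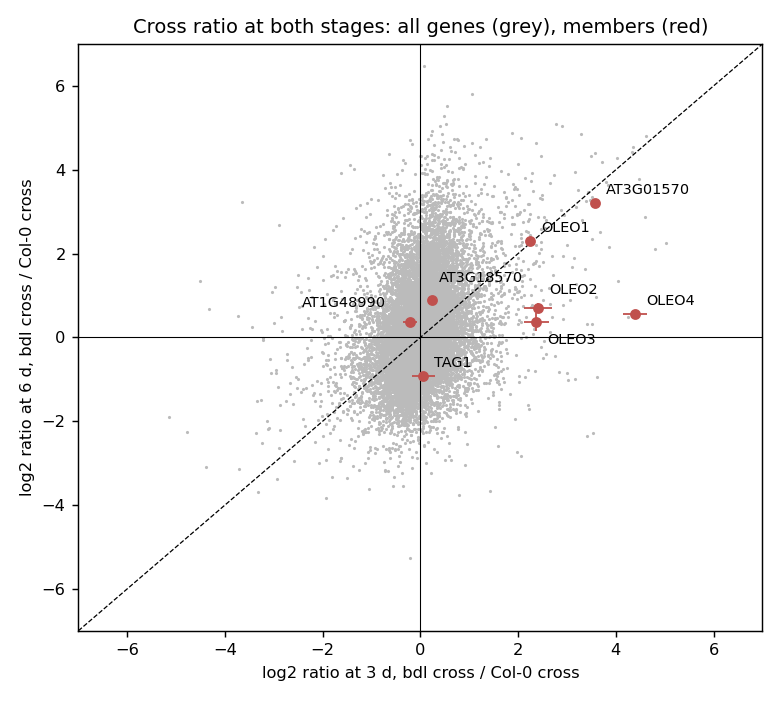
Fitted log2 ratio between the crosses (above 0 where the bdl cross is higher) at 3 d (horizontal) and 6 d (vertical); grey points are all genes tested at both stages, red points the 8 members tested at both, with bars of 1 standard error, and the dashed line marks equal ratios. OLEO1 and AT3G01570 lie near the line, OLEO2, OLEO3 and OLEO4 far to its right, and TAG1 below it.

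Most pairs of oleosins differed in how the ratio moved between stages. Each of the 21 pairs of oleosins was compared by the difference between their log2 ratios on the same array, with an exact two-sided permutation test of the 4 arrays of 3 d against the 4 of 6 d, whose smallest possible p is 0.0286. That smallest p was reached by 18 pairs (0.0334 after Benjamini-Hochberg adjustment over the 21 pairs). The pairs share 7 genes and are not independent. Their adjusted p rests on how many pairs tie at the smallest value, so it does not single out any pair. The same separation of the stages was found for 48.1% of all pairs among 15601 genes with values on all 8 arrays. OLEO4 exceeded AT3G01570 by 0.82 at 3 d and lay 2.66 below it at 6 d, a change of −3.48 (exact p = 0.0286), but with an offset of 50 the 3 d gap was 0.36, given the dim Col-0 signal of OLEO4. OLEO1 lay 2.15 below OLEO4 at 3 d and 1.76 above it at 6 d, a change of 3.91 (exact p = 0.0286). OLEO2 against OLEO3 did not pass, with a change of 0.30 (exact p = 0.4), nor did AT1G48990 against AT3G18570 (−0.08, exact p = 0.8) or OLEO1 against AT3G18570 (−0.60, exact p = 0.0571, 0.0631 adjusted). OLEO4 differed in its change from OLEO2 by 2.13 and from OLEO3 by 1.83 (exact p = 0.0286 each), and OLEO1 from AT3G01570 by 0.42 (exact p = 0.0286). The dim Col-0 signal limits every pair with OLEO4. With the offset of 50, OLEO4 read 3.80 at 3 d, and OLEO1, OLEO2 and OLEO3 read 2.17, 2.39 and 2.27.

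The order of the oleosin ratios differed between the stages. At 3 d it ran from OLEO4 and AT3G01570 to OLEO2, OLEO3 and OLEO1, and then to AT3G18570 and AT1G48990, whose ranges met at 0.04 to 0.05. The array ranges of OLEO4 (3.65 to 4.93) and AT3G01570 (3.32 to 3.82) overlapped, as did those of OLEO1, OLEO2 and OLEO3, which were spread over 1.40 to 2.84. At 6 d it ran from AT3G01570 and OLEO1, whose ranges did not overlap, to AT3G18570, OLEO2, OLEO4, AT1G48990 and OLEO3, among which each gene's range overlapped with that of the next in the order. AT3G18570 lay below OLEO1 with no overlap. Replicate 4 was the lowest of the 3 d arrays for 6 of the 7 oleosins, AT3G18570 being the exception. At 6 d replicates 1, 2, 3 and 4 were the lowest for 2, 1, 3 and 4 of the 10 members.

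Related lipid droplet genes went both ways at 3 d and were mostly higher among those called at 6 d. Of 12 tested among 22 further oil body and lipid droplet genes, 3 were called higher and 2 lower at 3 d (median 0.21), and 6 higher and 1 lower at 6 d (median 0.85). Over all genes 7.01% were called higher and 6.1% lower at 3 d, and 26.7% each way at 6 d. The oleosin AT2G25890, which is no member, read 1.24, 1.09, 0.87 and 1.30 at 3 d (2.19-fold, 1.13 ± 0.11, adjusted p = 0.0323) and 1.96, 1.97, 2.27 and 0.79 at 6 d (3.35-fold, 1.75 ± 0.30, adjusted p = 0.0213). The caleosin gene RD20, known for its response to dehydration, was lower at 3 d (−0.69 ± 0.07, adjusted p = 0.0335) and 7.57-fold higher at 6 d (2.92 ± 0.06, adjusted p = 0.00257), with a stage difference of 3.61 ± 0.08 (adjusted p = 1.09e-05). Another caleosin gene, CLO4, was 5.75-fold higher at 6 d (2.52 ± 0.07, adjusted p = 0.00257). The caleosin gene ATPXG2 read −0.70 ± 0.09 at 3 d (adjusted p = 0.0418). AT2G34380, one of the seipins, which act where lipid droplets form, had a stage difference of −1.68 ± 0.28 (adjusted p = 0.00554).

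Genes of triacylglycerol assembly went both ways at both stages. Of 13 tested at 3 d, 2 were higher and 2 lower (median 0.06), and of 14 at 6 d, 3 were higher and 6 lower (median −0.10). All genes went both ways too, with 7.01% higher and 6.1% lower at 3 d and 26.7% each way at 6 d. DGAT3, a soluble diacylglycerol acyltransferase, was 2.77-fold lower at 3 d (−1.47 ± 0.07, adjusted p = 0.0224). ROD1, which moves phosphocholine between diacylglycerol and phosphatidylcholine, was 2.12-fold higher (1.09 ± 0.08, adjusted p = 0.0292), and so was GPAT9, of the first acylation of glycerol phosphate, by 1.41-fold (0.49 ± 0.06, adjusted p = 0.0385). By limma at 6 d, GPAT9 was called lower (−0.74, adjusted p = 0.00489) and ROD1 was not called (−0.14, adjusted p = 0.516). At 6 d KCS18 (FAE1), the elongase of very long chain fatty acids in seed oil, was 8.63-fold higher (3.11 ± 0.20, adjusted p = 0.00347), and AT3G44830, a relative of the phospholipid acyltransferase gene PDAT, 4.29-fold (2.10 ± 0.08, adjusted p = 0.00257). Both had dim probes at 3 d, above empty spots in 2 of 8 channels each. PAH2, a phosphatidate phosphatase gene, was 2.41-fold lower at 6 d (−1.27 ± 0.07, adjusted p = 0.00316). Of 4 breakdown genes, the lipase gene SDP1 was higher at 3 d (0.63 ± 0.08, adjusted p = 0.042) and 6 d (0.46 ± 0.06, adjusted p = 0.0115), and AT4G10790, known as PUX10 for its part in removing oleosins, was lower at 6 d (−0.68 ± 0.09, adjusted p = 0.0124).

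Regulators of seed oil and oleosin genes were measured in full. Of 11, 6 were higher and 2 lower at 3 d (median 0.49), and 5 higher and 2 lower at 6 d (median 0.55). The shares over all genes were 7.01% and 6.1% at 3 d, and 26.7% each way at 6 d. At 3 d the largest called differences were those of NF-YB6 (L1L), a subunit of a CCAAT-binding factor of embryos (1.27 ± 0.15, adjusted p = 0.0384), WRI1, the activator of fatty acid synthesis (1.13 ± 0.07, adjusted p = 0.029), and FUS3, a B3 factor of maturation (0.90 ± 0.06, adjusted p = 0.0292). The 2 called lower at 3 d by limma were ABI3 (−0.89, adjusted p = 0.0311) and ABI5 (−0.58, adjusted p = 0.0412). ABI3 was also called lower at 6 d (−0.75, adjusted p = 0.00725). At 6 d the largest called ones were those of MYB96 (1.43 ± 0.06, adjusted p = 0.00261), ABI4 (−1.29 ± 0.07, adjusted p = 0.00296), both factors of abscisic acid response, and LEC2, a B3 factor that can induce oleosin genes (0.82 ± 0.06, adjusted p = 0.00453). NF-YB6 read 1.19 at 6 d and was not called (adjusted p = 0.107).

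Markers of tissues around the embryo were also higher in the bdl cross where they were called, with 1 exception. Of 8 embryo markers, 7 were on the array, and all 7 were above empty spots on at least 2 arrays in both crosses. Of these, 3 were higher and 1 lower at 3 d (median 0.18), and of 6 tested at 6 d, 1 was higher and 3 lower (median −0.15). For this and the following lists, the shares over all genes were 7.01% higher and 6.1% lower at 3 d. At 6 d they were 26.7% each way. The homeobox gene WOX2, of the apical embryo, read 1.49 at 3 d (adjusted p = 0.0338), and PLT2, a factor of the root pole, read −1.67 at 3 d and −1.61 at 6 d (adjusted p = 0.0392 and 0.00991). The protoderm genes ATML1 and PDF2 read −1.30 and −1.08 at 6 d (adjusted p = 0.00334 and 0.00316). Of 13 tested seed coat markers 5 were higher and 0 lower at 3 d (7 and 0 at an unadjusted p under 0.05; median 0.38), and 9 higher and 1 lower at 6 d (median 1.46). Of 9 tested endosperm markers 3 were higher and 0 lower at 3 d (5 and 1 at an unadjusted p under 0.05; median 0.45), and 5 higher and 0 lower at 6 d (6 and 0; median 1.57). Above empty spots on at least 2 of the 3 d arrays were 13 of 14 seed coat and 9 of 11 endosperm markers, in each cross. The seed coat marker TT16 and the endosperm markers FIS2 and IKU2 exceeded empty spots in 1 channel of 1 array. Summed intensities at 3 d ran from 159547 to 267193 in the bdl cross and from 100619 to 180988 in the Col-0 cross for 12 seed coat markers. For the 9 endosperm markers with intensities on all 4 arrays they ran from 16126 to 23942 and from 9265 to 13304. These 9 include FIS2 and not RGE1, whereas the 9 tested at 3 d include RGE1 and not FIS2. The log2 ratio of these sums was 0.55 to 0.67 for seed coat and 0.80 to 0.95 for endosperm. The embryo sum gave 0.44 to 0.56. On single 3 d arrays the 5 called oleosins read 1.40 to 4.93. The fitted 3 d values of AT1G48990, AT3G18570 and TAG1, which were not called, were −0.21, 0.23 and 0.05. At 6 d the medians of 1.46 for seed coat and 1.57 for endosperm exceeded the members' median of 0.80. By name, the endosperm markers AGL36, MPC and SUC5 read 1.39, 1.13 and 0.86 at 3 d (adjusted p = 0.0388, 0.0292 and 0.0292), and PHE1, RGE1 and FWA read 2.09, 1.97 and 1.89 at 6 d (adjusted p = 0.00453, 0.00273 and 0.00599). Among seed coat markers the flavonoid genes TT4, TT5 and F3H read 0.88, 0.72 and 0.69 at 3 d (adjusted p = 0.0323, 0.0303 and 0.0311), and DFR, TT10 and STK read 2.28, 2.22 and 2.02 at 6 d (adjusted p = 0.00257, 0.00279 and 0.00257). The part of other tissues in the oil body values was not tested. Of the tapetal oleosin-like genes, which coat pollen and stood for another source of oleosin signal, 3 of 6 on the array could be tested: by limma 0 passed at 3 d, where 2 were higher at an unadjusted p under 0.05 (median 0.74), and GRP18 (2.03 ± 0.12, adjusted p = 0.0031) and GRP14 (1.14 ± 0.07, adjusted p = 0.00332) were higher at 6 d.

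**Figure D4:**
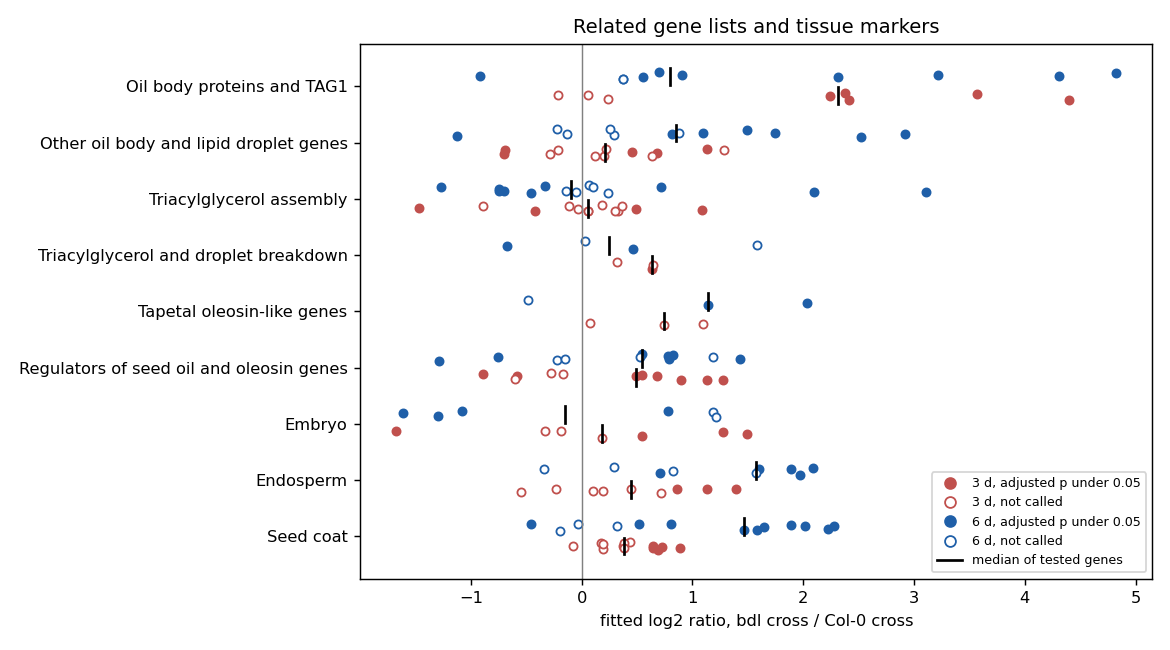
Fitted log2 ratio (horizontal axis) of each tested gene of the members and of 8 related lists or marker lists; red is 3 d, blue is 6 d, filled points passed an adjusted p under 0.05, open points did not, and bars are medians. The 5 called oleosins lie at 2.24 to 4.39 at 3 d, to the right of every gene of the other lists at that stage. AT1G48990, TAG1 and AT3G18570 lie at −0.21, 0.05 and 0.23 at 3 d.

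The genes whose ratios were most like the members' mean profile were sought among 15601 genes with values on all 8 arrays. Averaged over the 7 oleosins, the ratios ran from 1.64 to 2.40 on the 3 d arrays, and those of 6 d lay between 1.11 and 1.32. By Euclidean distance over the 8 log2 ratios the nearest were AT2G16660, annotated on the array as a nodulin family protein (0.67), AT3G45310, a putative cysteine proteinase (0.86), AT5G12420 (1.16), the F-box gene AT1G58310 (1.17), AT1G79160 (1.21), the lipase gene ARAB-1 (1.24), AT1G44760, of the universal stress protein family (1.29), and SIP1, annotated as a putative alkaline alpha galactosidase (1.32). AT2G16660 averaged 1.93 at 3 d and 1.03 at 6 d. The oleosins themselves lay farther from their own mean, at 1.34 for OLEO2 to 5.01 for AT1G48990, so the mean profile describes none of them closely.

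Genes next to the members on the chromosome held no call at 3 d, a stage at which 13.1% of all genes were called. Of 20 neighbours (the next protein-coding gene on each side, by gene order alone), 13 were tested at 3 d and 0 were called by limma, with 3 higher and 1 lower at an unadjusted p under 0.05 and log2 ratios of −0.64 to 0.38 and a median of 0.13. At 6 d 14 were tested, of which 3 were called higher and 3 lower, beside 26.7% of all genes called each way. Both neighbours of AT3G18570 were higher at 6 d, AT3G18560 by 1.28 (adjusted p = 0.0028) and AT3G18580 by 1.44 (adjusted p = 0.00414), as AT3G18570 was by 0.90; these neighbours are named after their values were seen.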

How the data were processed

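Per the labels' protocols, total RNA of isolated embryos was amplified as antisense RNA and coupled to dyes for 2-colour arrays. The deposited 3 d files held 1 intensity per spot and cross; as the values show, the authors had corrected the background and scaled the channels to each other before deposit, so normexp and loess were not applied first. The authors' deposited value table held log2 ratios for all 8 arrays: 24661 of its 28399 rows, those with at least 2 values at 3 d, each equalled, within 1e-06, the log2 of bdl cross intensity divided by Col-0 cross intensity at 1 spot. The 6 d ratios were read from these rows. Rows with 1 value at 3 d (2267) or 0 values (1471) were not matched to a spot. A gene whose probe had no matched row is therefore missing from the 6 d test and its background. The sources used here name no scanner, image software, normalization method, slide or scan date. Columns that fit no sample numbered 0.

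Loci were named from the RefSeq gene table of TAIR10.1 (24467 of 24648 found), for names and gene order alone, as the files name no build; no sequences were used here. A locus took its brightest probe at 3 d (1645 loci had 2 or more). At 3 d a probe needed a channel above the 95th percentile of 1743 empty spots on 2 or more arrays. All 8 tested members would have passed through either channel alone. Values on 3 or more arrays in both dye orientations (3 or more per stage for the stage difference) were required. The test was limma's moderated linear model (lmFit, eBayes; limma 3.58.1, R 4.3.3) with a dye term, Benjamini-Hochberg adjusted over all genes, and it was tested on simulated data first. Tables and figures used the data.table package (version 1.17.8), Python 3.11.15, SciPy 1.17.1 and matplotlib 3.10.9. All 10 members were named, and of each related list the called genes with the 3 largest ratios per stage, with AT5G50700. ABI3 and ABI5, called lower at 3 d, and the dim markers TT16, FIS2 and IKU2 were named besides, after their values were seen. The 8 genes most like the members were taken by distance. The members and lists were chosen with earlier results of these data known. Alternatives changed the source of values, normalization, offset, filter, dye term, probes, spread, arrays and replicate block.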

Additional observations from a re-analysis of the deposited data

Results flagged for a closer look

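OLEO2 at 3 d had 1 array far from the others, replicate 4 at 1.40 against 2.63 to 2.84. By Dixon's criterion this was the only such case in 17 sets of 4 arrays, where chance gives about 1 in 20. OLEO3 had the same low array, at 1.51 against 2.53 to 2.74, which fell just short of the criterion.

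For 6 members the difference between the crosses differed between the stages by limma's test of 6 d minus 3 d. The difference was −3.84 for OLEO4, −2.01 for OLEO3, −1.71 for OLEO2 and −0.99 for TAG1. It was 0.67 for AT3G18570 and 0.59 for AT1G48990.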

How the results depend on the processing

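Outside the fits that left out arrays, the 5 members called higher at 3 d, the 8 higher and 1 lower at 6 d, and the 2 larger and 4 smaller ratios between stages were the same counts under every alternative run, the replicate block included, which gave 2 and 4 and changed no call of a member (4010 and 3355 genes, against 4499 and 3906). Same-numbered arrays of the stages did not deviate together (r = −0.08 to −0.04 over 15601 genes), so the numbers were not taken as pairs. With both channels required above empty spots on all arrays the 5 at 3 d were not the same genes, since AT3G18570 was called and OLEO4 was not tested. Of 152 member values under these alternatives, 151 stayed on their side of the threshold, AT3G18570 being the exception. Several alternatives could not change a member's fitted value, only its adjusted p. Each member has 1 probe, so the mean over probes equals it, and the value table holds the same 3 d ratios. Lifting the filter on dim probes, or requiring values on all 4 arrays at 6 d, also left the fitted values as they were. For members measured on every array fitted, so did another or no dye term, the intensity trend, a robust spread estimate and the replicate block. Loess within arrays, the offset of 50 and median centring alone changed the values of these members. With 1 array left out and the dye term retained, the fits gave 0 members higher at 3 d each time, 5 to 6 at 6 d, and 1 to 3 larger and 4 to 5 smaller ratios between stages. With no dye term the ranges were 3 to 5, 6 to 8, 1 to 3 and 4 to 5. In sign, TAG1 at 3 d without replicate 2 and with no dye term read −0.13 (0.05 with all arrays), and the stage difference of OLEO1 without replicate 4 of 3 d and with no dye term read −0.019 (0.07 with all arrays), neither called in any fit. Counts over all genes at 3 d, 1348 higher and 1173 lower, depended on the setting: 2765 and 2608 with both channels above empty spots, 2484 and 2379 with a dye term that followed the empty spots (chosen after the data were seen), 2984 and 2738 with an intensity trend, 2609 and 2466 without the dye term, 2090 and 1925 with an offset of 50, and 954 and 760 with no filter. Leaving out 1 array gave 0 and 0 with the dye term, and without it 499 to 1596 and 334 to 1418, the counts without replicate 2 (499 and 334) and replicate 3 (563 and 363) being the low ones. At 6 d, leaving out 1 array with the dye term gave 3669 to 4299 higher and 3483 to 4116 lower (5323 and 5334 with all arrays), and without it 4956 to 5070 and 4892 to 5069. The causes were not tested. Signal over background limits CLO1 and the Col-0 channel of OLEO4 at 3 d, and is unknown at 6 d. HSD1 is limited at 3 d by values on replicates 1 and 4 alone.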
